A study of Mus musculus with 12 samples.

Results

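The genes described here defend cells against reactive oxygen: catalase, superoxide dismutases, glutathione peroxidases, the thioredoxin and peroxiredoxin system, glutathione synthesis and transferases, haem oxygenases, *Nqo1*, repair enzymes and the regulators *Nfe2l2*, *Nfe2l1* and *Keap1*. They were listed by name, and 37 of the 39 listed genes were present in both normalized count tables, which hold 41255 genes for mRNA and 10080 for ribosome footprints (RPF, the mRNA fragments covered by ribosomes). *Prdx4* and *Mgst1* were absent from the RPF table. Libraries came from Ba/F3, an established mouse line that needs interleukin-3. Each clone carried a retroviral human RPL10 cDNA, either WT or with the R98S substitution, together with an shRNA against the endogenous *Rpl10*. The 6 clones are monoclonal cultures grown from single cells, R98S clones 11, 13 and 35 and WT clones 28, 29 and 36, and each gave 1 RPF and 1 mRNA library after 5 min in cycloheximide at 100 µg/ml. The series asks how the mutant ribosomal protein changes mRNA levels and their translation.

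Thioredoxins and peroxiredoxins reduce peroxides and protein disulphides with electrons that thioredoxin reductase takes from NADPH, while glutaredoxins, glutathione peroxidases and transferases use glutathione. The transcription factor NRF2, encoded by *Nfe2l2*, is held at a low level by KEAP1 and drives many of these genes when oxidants or electrophiles modify KEAP1. Antioxidant capacity is known to matter in blood cells, where fast growth and haem metabolism produce peroxide.

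The mRNA libraries held 22178094, 21217231 and 20576796 reads in R98S clones 11, 13 and 35, against 6617457, 21620993 and 23136595 in WT clones 28, 29 and 36. WT clone 28 was the shallowest mRNA library. RPF libraries, each merged from 3 technical replicates, held 10883086, 6827929 and 3477723 reads in the R98S clones and 7162305, 5619539 and 4611390 in the WT clones. Values below are DESeq2-normalized counts, in which 1 read was worth 2.69 in the mRNA library of WT clone 28 and 0.784 to 0.860 in the other mRNA libraries. Normalized *Rpl10* mRNA was 2905, 1449 and 2355 in R98S clones 11, 13 and 35 and 4501, 2345 and 2230.2 in WT clones 28, 29 and 36. The groups overlapped, with a log2 fold change of -0.42 (95% interval -1.13 to 0.30, limma adjusted p 0.551). In RPF, *Rpl10* was 2594, 1253 and 1612 in the R98S clones and 2605, 1597 and 1732 in the WT clones, again with overlap and a log2 fold change of -0.15 (95% interval -0.76 to 0.46, limma adjusted p 0.794). The tables do not separate the mouse transcript from the human cDNA, so these values do not check the genotype labels.

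The cell label was compared with marker lists. The 3 interleukin-3 receptor genes summed to 115900.8, 95080.5 and 117075 mRNA counts in the R98S clones and 42064, 80899 and 55818 in the WT clones, with *Csf2rb* the most abundant. The 3 R98S sums were above the 3 WT sums. In mRNA, 2 of the 3 genes had log2 fold changes above 0 and 1 below, and limma called 1 higher. In RPF all 3 were above 0 and limma called 2 higher. Among all tested genes, limma called 3.03% higher in mRNA and 3.13% in RPF. Of 11 pro-B genes, *Cd79a* and *Cd79b* had a mean of at least 10, 3 (*Pax5*, *Rag1* and *Il7r*) were at 0 in each mRNA library, and the sums were 1666, 1351 and 1672 against 1157, 1068 and 896. Of 10 mast cell and basophil genes 5 had a mean of at least 10, *Kit*, *Tpsb2* and *Prss34* were at 0, and *Gata2* made up most of sums of 15961, 15728 and 12629.6 against 26660.5, 20561 and 21980.4. T cell genes summed to 77.8, 87.6 and 99.7 against 48.3, 63.5 and 47.0, mainly *Lck*, with *Trbc1* at 0. Fibroblast genes stayed at 12.7, 7.37 and 4.30 against 0, 0.825 and 0.784, with *Col1a1* first and *Dcn* and *Pdgfrb* at 0. So the interleukin-3 receptor genes were abundant, most pro-B genes were at or near 0, and *Gata2* was high. These values alone do not identify the line.

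Genes of the mast cell list did not share 1 direction. Of the 5 tested in mRNA, 4 had log2 fold changes above 0 and 1 below, with a median of 1.00, and limma called 1 higher (*Cpa3*) and 1 lower (*Gata2*). *Cpa3*, a carboxypeptidase of mast cells, had mRNA of 644, 253 and 787 in the R98S clones and 13.4, 174 and 54.9 in the WT clones. The log2 fold change was 3.28 (SE 0.78, limma adjusted p 0.0506), a call that ended without R98S clone 11 (0.181), R98S clone 35 (0.139) or WT clone 36 (0.142). In RPF it was 2.41 (SE 0.44, limma adjusted p 0.0154), with limma adjusted p of 0.00566 to 0.0680 when each clone was left out. For *Gata2* the mRNA log2 fold change was -0.73 (SE 0.20, limma adjusted p 0.0805), which ended without R98S clone 11 (0.211), R98S clone 13 (0.175), R98S clone 35 (0.195), WT clone 28 (0.102) or WT clone 36 (0.176). It also ended when the low-count filter was dropped (0.139) and when chromosome medians were removed (0.153). Its RPF log2 fold change was -0.37 (95% interval -0.87 to 0.14, -0.57 to -0.19 with 1 clone left out, limma adjusted p 0.402). Both genes are described after their values were seen.

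Blood lineage markers of 2 further kinds were low but uneven. The 6 macrophage or granulocyte genes found, of 7 listed, summed to 0, 0 and 25.8 in the R98S clones and to 153, 29.7 and 58.8 in the WT clones, and *S100a9* gave most of the value in WT clone 28. The 8 erythroid genes summed to 677, 461 and 476 against 725, 554 and 346, mainly *Epor* and *Klf1*. Within that list, *Hba-a1* mRNA was 4.76, 1.64 and 2.58 in the R98S clones and 169, 28.9 and 36.8 in the WT clones. It was lower in 3 of 3 R98S clones than in any WT clone, and highest in WT clone 28. Of the 4 erythroid genes tested in mRNA, 3 had log2 fold changes above 0 and 1 below. The 2 found in RPF summed to 323, 308 and 289 in the R98S clones and 196, 273 and 179 in the WT clones. There the R98S sums were all above the WT sums. In bulk libraries fewer cells of a kind and less RNA per cell cannot be told apart. Whether these markers have a part in the values of the defence genes was not tested.

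The mRNA library of WT clone 28 stood apart from the other 5. Among 9029 genes, its deviation from the mean over clones fell with transcript length (Spearman rho -0.386 across genes, which are not independent replicates), against -0.154 to 0.244 in the other mRNA libraries. Its 544 genes with transcripts under 1000 bases deviated by a median of 0.33 on the log2 scale, against -0.18 to 0.07 elsewhere. Some defence genes have transcripts under 1000 bases, and those tested in mRNA did not share a direction in that library. *Gpx4* (11112), *Prdx5*, *Mgst2* and *Gstp1* were the highest of the WT clones there. *Sod1*, *Glrx2* and *Gsta4* were the lowest, and *Gstm1* lay between. Log2 fold changes of named members in mRNA, and in translation where described, are therefore also given without WT clone 28.

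Within the WT clones, levels of different genes were compared per kilobase of the longest coding transcript for mRNA and of the counted coding sequence for RPF. The median member stood at percentile 86.0 of mRNA (38 members with a value among 15335 genes) and 82.7 of RPF (37 among 10001). Among mRNAs, 13 members lay in the top 10% and 1 in the lowest 25%, and among RPF 14 and 1. The percentile of mRNA was 88.3, 87.4 and 87.5 without WT clone 28, 29 or 36. The 3 members highest per kilobase of mRNA were *Gpx4* (7340.2 normalized counts per kb), which reduces lipid peroxides, *Sod1* (6275), the cytosolic superoxide dismutase, and *Prdx5* (4989), a peroxiredoxin of several compartments.

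RPF per kilobase put the members in another order. The highest value was 11260.4 in *Txn1*, the cytosolic thioredoxin, and the lowest 17.0 in *Gstm1*. The ratio of RPF to mRNA per kilobase ran from 0.238 in *Gclc* to 5.40 in *Sod2*, with a median member at percentile 67.5 of 9166 genes. The tables were normalized separately, so this ratio orders genes and has no absolute scale. *Txn1*, *Gstm1*, *Gclc* and *Sod2* were chosen for these sentences after their values were seen. Transcripts with near copies or pseudogenes, among them *Gstp1*, the *Gstm* family, *Prdx1*, *Txn1*, *Gpx4* and *Fth1*, have less certain levels, because reads of low mapping quality were left out.

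**Figure D1:**
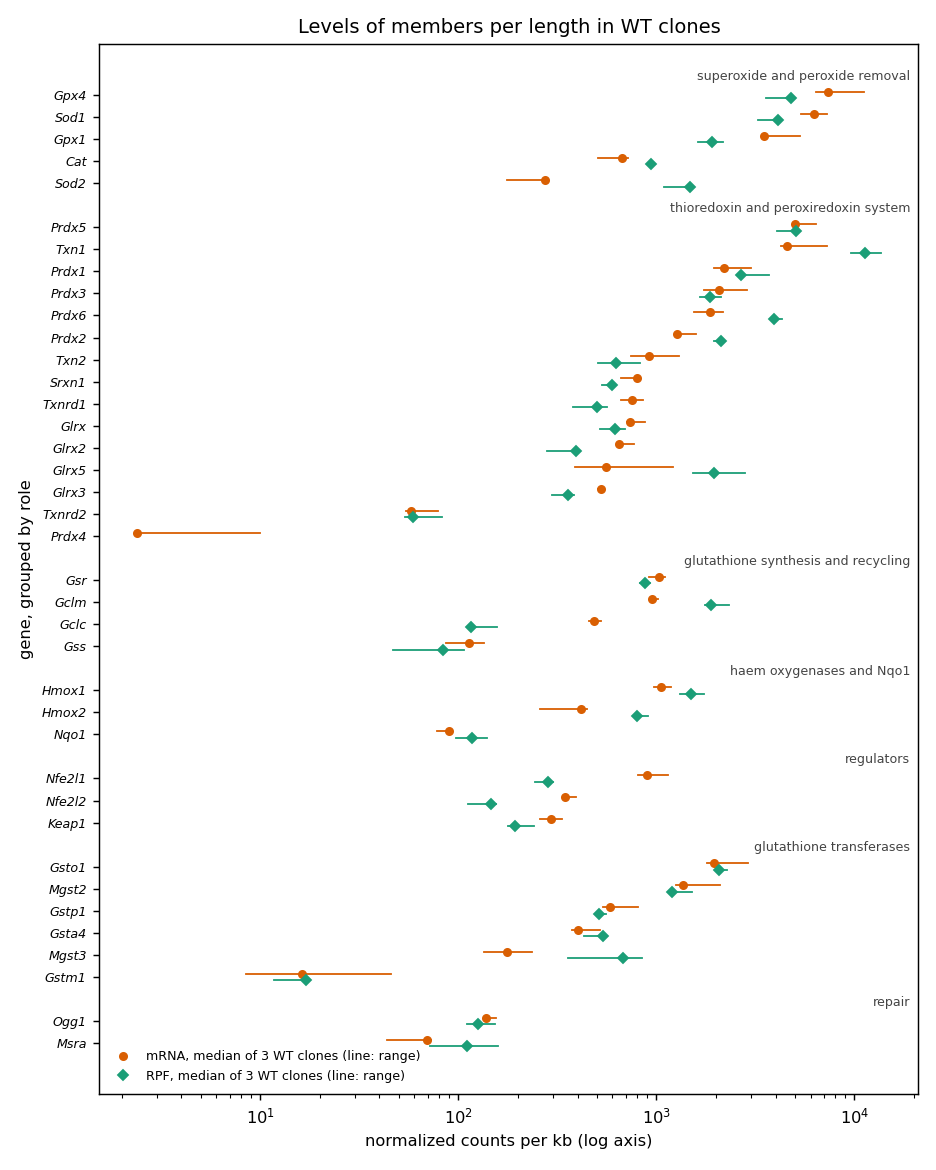
Normalized counts per kilobase (log axis) of each member in WT clones, grouped by role, for mRNA (circles) and RPF (diamonds), with points at the median of 3 clones and lines over their range. *Gpx4* and *Sod1* led in mRNA at 7340.2 and 6275, and *Txn1* led in RPF at 11260.4.

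R98S clones were then compared with WT clones for mRNA. Of 37 tested members, limma called 4 lower (*Gclm*, *Mgst2*, *Prdx2* and *Srxn1*) and 0 higher at an adjusted p under 0.1. Among all 11344 tested genes 6.94% were called, 3.91% lower and 3.03% higher. For the members, edgeR also gave 0 higher and 4 lower, DESeq2 gave 1 higher and 5 lower, and 2 were higher and 7 lower at an unadjusted p under 0.05. At that unadjusted level, 1004 of the 11344 tested genes were higher and 1032 lower. The count of lower members was 1 without R98S clone 11, R98S clone 13 or WT clone 36, and it was 4, with 1 higher, without WT clone 28. The additional members under DESeq2 were *Glrx3* (higher) and *Gpx4* (lower), and the member higher without WT clone 28 was *Prdx1*. *Glrx3* and *Prdx1* are named after their values were seen.

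Direction was mixed across the list. Log2 fold changes of members ran from -1.33 to 0.67 with a median of -0.09, against 0.01 over all genes, and 22 were below 0 and 15 above. The 3 R98S clones lay below the 3 WT clones for 8 members and above them for 2, against 11.6% and 11.9% of all genes. With 3 clones a group, the smallest exact permutation p, two-sided, is 0.1, so single genes were judged by the fit across all genes.

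In RPF, 36 members were tested, and 5 were called lower (*Prdx2*, *Mgst2*, *Nqo1*, *Gclm* and *Hmox2*) and 1 higher (*Txn2*). Among all 9580 tested genes 7.76% were called, 4.62% lower and 3.13% higher. At an unadjusted p under 0.05, 6 members were lower and 3 higher, against 1021 lower and 922 higher of the 9580 tested genes. For the members, edgeR gave 5 lower and 1 higher, and DESeq2 5 lower and 2 higher. Leaving out clones took the lower count to 3 without R98S clone 11 or WT clone 36 and to 2 without R98S clone 13, WT clone 28 or WT clone 29. The higher count was 0 without R98S clone 11, R98S clone 13, WT clone 28 or WT clone 29.

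RPF log2 fold changes of members ran from -1.37 to 0.87 with a median of -0.06, against 0.01 over all genes. R98S clones lay below WT clones for 7 members and above for 4, against 12.8% and 12.5% of all genes. In both assays at once, 4 members lay below (*Gclm*, *Mgst2*, *Nqo1* and *Prdx2*) and 1 above (*Glrx2*), against 6.12% and 5.22% of 9501 genes. Of 36 members tested in both, 17 had both folds below 0, 11 both above and 8 opposite, against 3335, 3562 and 2604 of the 9501 genes. Both assays called 3 members lower, mRNA alone called 1 and RPF alone 3. Among the 9501 genes, 230 were lower and 115 higher in both, while 248 were called in mRNA alone and 398 in RPF alone. The difference between the assays was tested as translation efficiency.

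**Figure D2:**
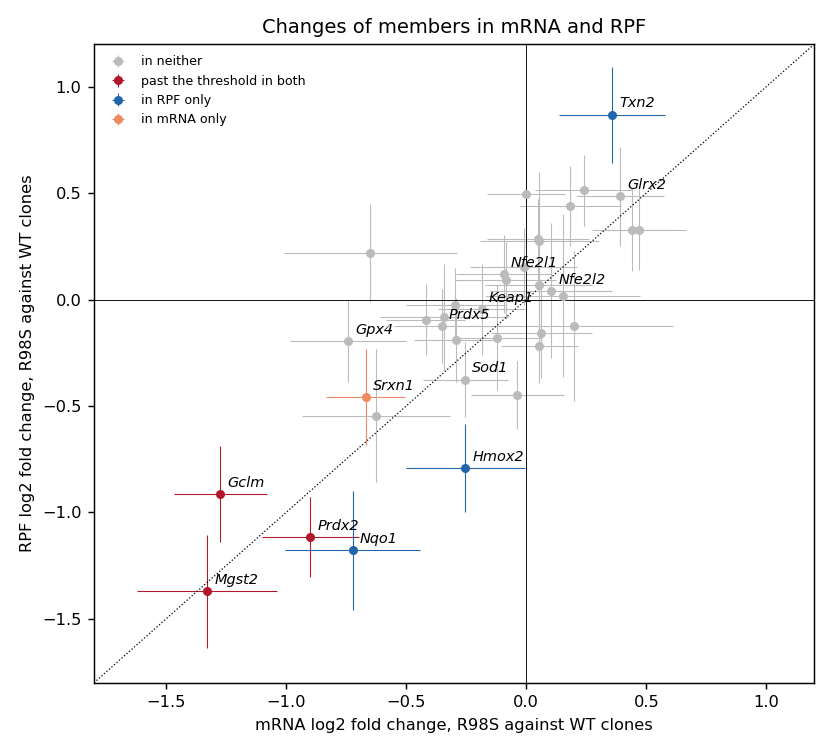
Log2 fold change, R98S against WT clones, in mRNA (x) and RPF (y) for 36 members, with bars of 1 SE, a dotted line of equal change and colours for calls at limma adjusted p under 0.1. *Gclm*, *Prdx2* and *Mgst2* lie below 0 and past the threshold on both axes, and *Txn2* is the 1 member called above 0.

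Glutathione synthesis and recycling held 4 members, of which 1 was called in each assay. *Gclm* encodes the modifier subunit of glutamate-cysteine ligase, the first enzyme of glutathione synthesis. Its mRNA was 2573, 1698 and 2526 in R98S clones 11, 13 and 35 and 5317, 5670.4 and 5183 in WT clones 28, 29 and 36. Each R98S clone was below each WT clone, and the gap between the groups was wider than the spread within either. The log2 fold change was -1.27 (SE 0.19, limma adjusted p 0.00695), and it was -1.28 without WT clone 28. Leaving out each clone in turn kept the limma adjusted p at 0.0124 to 0.0308.

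*Gclm* RPF was 1114, 683 and 668 in the R98S clones and 1430.1, 1767 and 1348 in the WT clones. R98S clone 11 was the highest of the R98S clones and still below WT clone 36. This gave a log2 fold change of -0.91 (SE 0.22, limma adjusted p 0.0495). This call ended without R98S clone 13 (0.211), WT clone 28 (0.102), WT clone 29 (0.112) or WT clone 36 (0.101). The other 3 members of the role, *Gclc*, *Gsr* and *Gss*, passed the threshold in neither assay, and the 4 members' log2 fold changes ran from -1.27 to 0.05 in mRNA and from -0.91 to 0.49 in RPF.

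Promoters of the members lower in mRNA are shown because these members were called in the same direction. RefSeq windows of 300 bases (250 before and 50 after a start site, build GRCm38.p6) were matched by symbol for 33 members, with 50 windows. Both strands were searched for TGACNNNGC, the core of the antioxidant response element, and for TGAGTCA, the AP-1 element. A run such as GCTGAGTCA, present at *Prdx1*, counts for both. TGACNNNGC was in 4071 of all 32851 windows (12.4%) and in 7 of the 50 member windows, 1 each at *Sod1*, *Prdx1*, *Txnrd1*, *Srxn1*, *Gclm*, *Nfe2l2* and *Mgst1*. TGAGTCA was in 1709 of all windows (5.20%) and in 6 of the 50 member windows, those of *Prdx1*, *Srxn1*, *Glrx* (2 overlapping windows), *Gstp1* and *Mgst2*. Whether these shares differ was not tested. The *Prdx2* window held neither motif and is not shown. With the start site as 0, TGACNNNGC began at -134 in *Gclm* and at 28 in *Srxn1*, past the bases shown. The 250 bases before the start site follow for *Gclm* (chr3:122245307-122245556), *Srxn1* (chr2:152105274-152105523) and *Mgst2* (chr3:51660929-51661178), plus strand, with matches of either motif on either strand in capitals. A match is a description of letters only.
Gclm: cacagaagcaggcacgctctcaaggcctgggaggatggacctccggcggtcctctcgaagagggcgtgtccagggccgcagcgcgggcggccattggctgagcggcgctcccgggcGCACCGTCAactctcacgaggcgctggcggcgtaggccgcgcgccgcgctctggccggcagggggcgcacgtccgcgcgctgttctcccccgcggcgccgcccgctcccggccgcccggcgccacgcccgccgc
Srxn1: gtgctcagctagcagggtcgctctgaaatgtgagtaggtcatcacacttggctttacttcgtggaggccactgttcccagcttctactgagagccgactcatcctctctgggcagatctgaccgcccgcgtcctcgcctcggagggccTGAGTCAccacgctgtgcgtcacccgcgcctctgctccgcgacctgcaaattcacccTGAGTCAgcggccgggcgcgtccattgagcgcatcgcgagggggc
Mgst2: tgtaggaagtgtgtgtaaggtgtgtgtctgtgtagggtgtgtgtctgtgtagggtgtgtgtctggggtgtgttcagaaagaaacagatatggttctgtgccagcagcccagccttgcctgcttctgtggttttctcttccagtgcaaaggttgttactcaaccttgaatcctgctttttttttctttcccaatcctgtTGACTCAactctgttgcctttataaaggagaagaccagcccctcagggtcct

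The thioredoxin and peroxiredoxin system held 14 tested members, with 2 called lower in mRNA and 1 lower and 1 higher in RPF. *Prdx2* encodes an abundant cytosolic peroxiredoxin, best known from red blood cells. Its mRNA was 1172, 956 and 1474 in R98S clones 11, 13 and 35 and 2565, 2055 and 2033 in WT clones 28, 29 and 36. The groups did not overlap, and R98S clone 35 came nearest to the WT clones. As a log2 fold change this was -0.90 (SE 0.20, limma adjusted p 0.0407), and it was -0.79 without WT clone 28 (limma adjusted p 0.0626). The call ended without R98S clone 11 (0.160), R98S clone 13 (0.166) or WT clone 36 (0.106).

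*Prdx2* RPF was 503, 426 and 628 in the R98S clones and 1154, 1136 and 1046 in the WT clones. All 3 R98S clones were again below the WT clones, which lay close together. As a log2 fold change this was -1.12 (SE 0.19, limma adjusted p 0.0126), with limma adjusted p of 0.00676 to 0.0636 when each clone was left out.

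*Srxn1* encodes sulfiredoxin, which restores overoxidised peroxiredoxins. Its mRNA was 1328, 1406 and 1280.1 in the R98S clones and 1874, 2255 and 2276 in the WT clones. R98S clones sat close together and below WT clone 28, the lowest WT clone. The log2 fold change was -0.67 (SE 0.16, limma adjusted p 0.0548), and it was -0.76 without WT clone 28 (limma adjusted p 0.0278). Leaving out R98S clone 11 (0.210), R98S clone 13 (0.151), R98S clone 35 (0.113), WT clone 29 (0.128) or WT clone 36 (0.188) ended the call.

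In RPF, *Srxn1* was 156, 225 and 138 in the R98S clones and 243, 216 and 241 in the WT clones. R98S clone 13 was above WT clone 29, so the groups overlapped. Its log2 fold change of -0.46 (95% interval -0.96 to 0.04, -0.66 to -0.31 with 1 clone left out, limma adjusted p 0.291) missed the threshold, which does not show that RPF were equal.

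*Txn2*, the mitochondrial thioredoxin, moved in the other direction. Its RPF were 606, 524 and 427 in the R98S clones and 274, 223 and 362 in the WT clones. Each R98S clone was above each WT clone, and R98S clone 35 and WT clone 36 were nearest. This gave a log2 fold change of 0.87 (SE 0.23, limma adjusted p 0.0592). Without R98S clone 11 (0.214), R98S clone 13 (0.202), WT clone 28 (0.134) or WT clone 29 (0.131) the call ended. Its mRNA was 2743, 2178 and 2690.0 in the R98S clones and 2653, 1525 and 1887 in the WT clones, with overlap and a log2 fold change of 0.36 (95% interval -0.14 to 0.85, limma adjusted p 0.446), or 0.57 without WT clone 28 and 0.17 to 0.57 over all 6 omissions of 1 clone. With array weights, limma called *Txn2* mRNA higher, at 0.48 (adjusted p 0.0554).

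*Glrx2*, a mitochondrial glutaredoxin, was above WT in 3 of 3 R98S clones in both assays without passing the threshold. With array weights, limma called *Glrx2* mRNA higher, at 0.45 (adjusted p 0.0547). Its mRNA was 704, 732 and 621 in the R98S clones and 491, 586 and 492 in the WT clones, and its log2 fold change 0.39 (95% interval -0.02 to 0.80, 0.34 to 0.48 with 1 clone left out, limma adjusted p 0.307), or 0.35 without WT clone 28. In RPF it was 271, 226 and 186.4 in the R98S clones and 126, 177 and 185.8 in the WT clones. R98S clone 35 and WT clone 36 differed by less than 1 normalized count there, and the log2 fold change was 0.48 (95% interval -0.03 to 1.00, 0.31 to 0.62 with 1 clone left out, limma adjusted p 0.277).

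*Prdx5* showed no call. Its mRNA was 3720.0, 2511 and 3481 in the R98S clones and 4807, 3767 and 3740.3 in the WT clones. The highest R98S clone was just below the lowest WT clone, and the log2 fold change was -0.35 (95% interval -0.80 to 0.09, limma adjusted p 0.400), or -0.23 without WT clone 28 and -0.46 to -0.18 over all 6 omissions of 1 clone. *Prdx5* RPF was 2704, 2374 and 2448 in the R98S clones and 2341, 2977 and 2927 in the WT clones, with overlap and a log2 fold change of -0.13 (95% interval -0.51 to 0.26, -0.24 to -0.06 with 1 clone left out, limma adjusted p 0.729). Across the role, log2 fold changes ran from -0.90 to 0.47 in mRNA and from -1.12 to 0.87 in RPF.

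Among 6 glutathione transferases tested in mRNA and 5 in RPF, 1 was called in each assay. *Mgst2* encodes a microsomal transferase that also conjugates glutathione to a leukotriene precursor. Its mRNA was 263, 357 and 523 in R98S clones 11, 13 and 35 and 1259, 756 and 821 in WT clones 28, 29 and 36. All R98S clones were below the WT clones, with R98S clone 11 lowest and WT clone 28 highest. As a log2 fold change this was -1.33 (SE 0.29, limma adjusted p 0.0362), and it was -1.10 without WT clone 28 (limma adjusted p 0.0606). This call ended without R98S clone 11 (0.152), R98S clone 13 (0.139) or WT clone 36 (0.101).

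*Mgst2* RPF was 127, 196 and 272 in the R98S clones and 458, 449 and 577 in the WT clones. R98S clone 11 was again the lowest, WT clone 36 was the highest, and the groups were apart. As a log2 fold change this was -1.37 (SE 0.27, limma adjusted p 0.0207), and leaving out each clone gave limma adjusted p of 0.00627 to 0.0834. The remaining transferases passed the threshold in neither assay, within ranges for the role of -1.33 to 0.67 in mRNA and -1.37 to 0.44 in RPF. *Gstm1* was tested in mRNA alone, since its mean RPF count was under 10.

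The haem oxygenases and *Nqo1* formed a role of 3 members, with 2 called lower in RPF and 0 in mRNA by limma, where 1 was lower at an unadjusted p under 0.05 and edgeR and DESeq2 also called 0. *Nqo1* encodes a quinone reductase and is a much used NRF2 target. Its RPF were 44.1, 31.0 and 42.0 in the R98S clones and 88.8, 106 and 73.8 in the WT clones. The R98S clones were all lower, with R98S clone 13 the lowest. The log2 fold change was -1.18 (SE 0.28, limma adjusted p 0.0432). That call ended without R98S clone 11 (0.101), R98S clone 13 (0.179), WT clone 28 (0.113) or WT clone 29 (0.102). *Nqo1* mRNA was 95.3, 61.4 and 91.1 in the R98S clones and 139.6, 144 and 121 in the WT clones, also without overlap, with a log2 fold change of -0.72 (95% interval -1.35 to -0.09, limma adjusted p 0.208), or -0.70 without WT clone 28 and -0.84 to -0.52 over all 6 omissions of 1 clone.

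*Hmox2* encodes the constitutive haem oxygenase. Its RPF were 356, 384 and 563 in the R98S clones and 707, 802 and 708 in the WT clones. R98S clone 35 was nearest to the WT clones but below them. This gave a log2 fold change of -0.79 (SE 0.21, limma adjusted p 0.0592). Without R98S clone 11 (0.216), R98S clone 13 (0.232), WT clone 28 (0.119), WT clone 29 (0.123) or WT clone 36 (0.135) it was no longer called. *Hmox2* mRNA was 499, 462 and 633 in the R98S clones and 446, 768 and 721 in the WT clones. WT clone 28 was the lowest of the 6, and the log2 fold change was -0.25 (95% interval -0.81 to 0.31, limma adjusted p 0.652), or -0.50 without WT clone 28 (limma adjusted p 0.194). Without WT clone 29, WT clone 36 or R98S clone 13 it was smaller, at -0.11, -0.15 and -0.16. It ran from -0.50 to -0.11 over all 6 omissions of 1 clone. With array weights, limma called *Hmox2* mRNA lower, at -0.47 (adjusted p 0.0824).

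**Figure D3:**
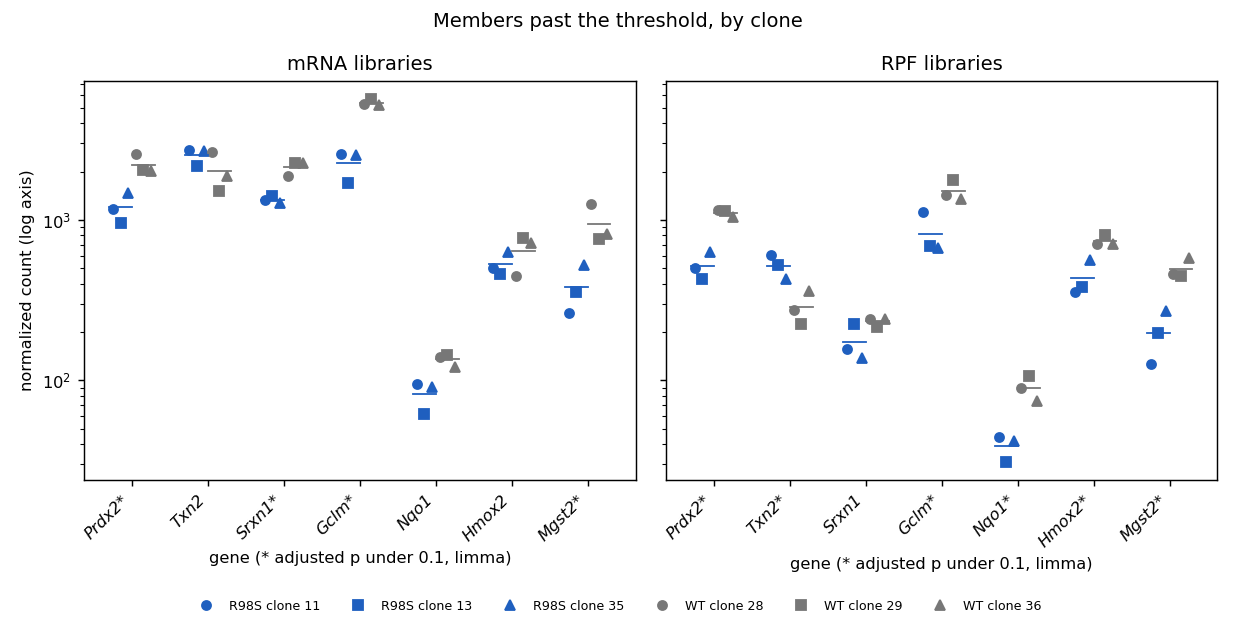
Normalized counts (log axis) of the 7 called members in each clone, mRNA left and RPF right, with R98S clones in blue, WT clones in grey, lines at group means and a star where limma adjusted p was under 0.1. *Gclm* mRNA ran from 1698 to 2573 in R98S clones and from 5183 to 5670.4 in WT clones.

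Superoxide and peroxide removal, with 5 members, had 0 calls by limma in either assay, where 1 member was lower at an unadjusted p under 0.05 in each (*Gpx4* in mRNA and *Cat* in RPF). edgeR called 0 in both, while DESeq2 called *Gpx4* lower in mRNA and 0 in RPF. With array weights, limma called *Gpx4* mRNA lower, at -0.50 (adjusted p 0.0757). It called *Cat* RPF lower with array weights and with chromosome medians removed. *Gpx4* mRNA was 5131, 3769 and 5735 in the R98S clones and 11112, 7304 and 6397 in the WT clones. Every R98S clone was below every WT clone, and WT clone 28 was far above the rest. As a log2 fold change this was -0.74 (95% interval -1.29 to -0.20, limma adjusted p 0.137), and -0.51 without WT clone 28 (limma adjusted p 0.190), the nearest to 0 of the 6 omissions. *Gpx4* RPF was 2528, 2449.8 and 3049.5 in the R98S clones and 2507, 3349 and 3385 in the WT clones, with overlap and a log2 fold change of -0.20 (95% interval -0.61 to 0.22, -0.34 to -0.12 with 1 clone left out, limma adjusted p 0.601). *Cat* is named here after its values were seen.

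*Sod1* mRNA was 3242, 3069 and 3804 in the R98S clones and 3437, 4647 and 4022 in the WT clones. The groups overlapped, since R98S clone 35 exceeded WT clone 28, and the log2 fold change was -0.25 (95% interval -0.65 to 0.14, limma adjusted p 0.503), or -0.36 without WT clone 28 and -0.36 to -0.15 over all 6 omissions of 1 clone. Its RPF were 1284, 1094 and 1216 in the R98S clones and 1317, 1659.5 and 1708 in the WT clones. R98S clones were all lower there, and the log2 fold change of -0.38 (95% interval -0.76 to 0.01, -0.49 to -0.31 with 1 clone left out, limma adjusted p 0.262) missed the threshold.

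The regulators had 0 calls by limma, edgeR or DESeq2 and 0 members at an unadjusted p under 0.05 in mRNA or RPF. *Nfe2l2* encodes NRF2. Its mRNA was 1036, 1295 and 643 in the R98S clones and 841, 853 and 970.1 in the WT clones. R98S clone 35 was the lowest and R98S clone 13 the highest of the 6. As a log2 fold change this was 0.10 (95% interval -0.46 to 0.67, limma adjusted p 0.879), and it was -0.12 without R98S clone 13, so its sign rested on that clone. *Nfe2l2* RPF was 311, 334 and 138 in the R98S clones and 269, 252 and 194 in the WT clones, where the same clones were lowest and highest. Its log2 fold change was 0.04 (95% interval -0.66 to 0.74, limma adjusted p 0.955), or -0.14, -0.19 and -0.10 without R98S clone 11, R98S clone 13 or WT clone 36.

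*Nfe2l1* encodes the related factor NRF1, which induces proteasome genes. Its mRNA was 1713, 2239 and 2299.7 in the R98S clones and 1891, 2098 and 2703 in the WT clones. Values of the groups were interleaved, and the log2 fold change was -0.09 (95% interval -0.54 to 0.35, limma adjusted p 0.855), or 0.04 and 0.05 without R98S clone 11 or WT clone 36. Its RPF were 605, 770.2 and 586 in the R98S clones and 653, 531 and 614 in the WT clones, again overlapping, with a log2 fold change of 0.12 (95% interval -0.29 to 0.53, limma adjusted p 0.759), or -0.0041 without R98S clone 13.

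*Keap1* encodes the adaptor that passes NRF2 to a ubiquitin ligase. *Keap1* mRNA was 1058, 884 and 864 in the R98S clones and 1200.4, 932 and 1064 in the WT clones. R98S clone 11 lay between WT clones 29 and 36, and the log2 fold change was -0.19 (95% interval -0.59 to 0.22, -0.28 to -0.10 with 1 clone left out, limma adjusted p 0.648). In RPF it was 389, 416 and 277 in the R98S clones and 437, 322 and 352 in the WT clones, with overlap and a log2 fold change of -0.05 (95% interval -0.52 to 0.43, limma adjusted p 0.927), or 0.13 and 0.08 without R98S clone 35 or WT clone 28. Without WT clone 28, mRNA log2 fold changes were 0.07 for *Nfe2l2*, -0.20 for *Nfe2l1* and -0.10 for *Keap1*. The repair role (*Ogg1* and *Msra*) also had 0 calls by limma, edgeR or DESeq2 and 0 at an unadjusted p under 0.05, with log2 fold changes of 0.05 to 0.15 in mRNA and 0.02 to 0.07 in RPF.

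Translation efficiency (TE) was the log2 RPF value minus the log2 mRNA value of each clone. Of 36 tested members limma called 0 higher and 0 lower, and edgeR and DESeq2 also called 0. At an unadjusted p under 0.05, 1 member was higher (*Glrx5*) and 1 lower (*Hmox2*), and *Glrx5* is named after its values were seen. Among all 9043 tested genes 0.0221% were called, 0.0221% lower and 0% higher, while 392 were higher and 325 lower at an unadjusted p under 0.05, edgeR called 0 higher and 3 lower and DESeq2 16 higher and 38 lower. Without WT clone 28, 4 genes were higher and 10 lower, with 0 members among them. Member log2 changes in TE ran from -0.54 to 0.87 with a median of 0.12, against -0.00 over all genes, and 22 were above 0 and 14 below.

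*Hmox2* TE was -0.48, -0.27 and -0.17 in the R98S clones and 0.66, 0.06 and -0.03 in the WT clones on the log2 scale. R98S clones were all below WT clones, and WT clone 28 was the highest. The difference was -0.54 (95% interval -1.02 to -0.06, -0.67 to -0.32 with 1 clone left out, limma adjusted p 0.623), or -0.32 without WT clone 28. R98S clones were below WT clones in TE for 5 members (*Cat*, *Prdx2*, *Nqo1*, *Hmox1* and *Hmox2*) and above for 1 (*Txnrd2*), against 7.36% and 7.45% of all genes, and *Hmox1* and *Txnrd2* are named after their values were seen.

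For *Txn2*, *Nqo1* and *Srxn1*, each called in 1 assay, the interval of TE bears on whether the assays differed. In *Txn2* the TE difference was 0.51 (95% interval -0.06 to 1.08, 0.28 to 0.72 with 1 clone left out, limma adjusted p 0.640), in 3 R98S clones against 3 WT clones that overlapped, and it was 0.28 without WT clone 28. In *Nqo1* it was -0.46 (95% interval -0.96 to 0.04, -0.51 to -0.38 with 1 clone left out, limma adjusted p 0.635), lower in 3 of 3 R98S clones, and -0.48 without WT clone 28. In *Srxn1* it was 0.21 (95% interval -0.28 to 0.70, 0.04 to 0.33 with 1 clone left out, limma adjusted p 0.779), with 0.33 without WT clone 28. These 3 intervals include 0 and are wide, so limma showed neither a change nor equality. edgeR and DESeq2 called none of the 3 in TE, and limma with array weights called *Txn2* alone, as higher (adjusted p 0.0859), so for *Txn2* the answer depended on the test.

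Of the 6 members called lower, 4 lay on chromosomes 3 and 8, against 7 of the 37 tested members. Among all genes with a position, these chromosomes held 10.1% of the 11316 tested and 23.2% of the 652 called lower in mRNA or RPF, a pair chosen after the calls were seen. *Gclm* (chr3:122245557-122270732) and *Mgst2* (chr3:51660360-51682677) are on chromosome 3, and *Prdx2* (chr8:84969587-84974834) and *Nqo1* (chr8:107388225-107403206) on chromosome 8, by GENCODE M21 on GRCm38. The others, *Srxn1* and *Hmox2*, are on chromosomes 2 and 16. Median deviations of 506 tested chromosome 3 genes from their mean over clones were 0.10, -0.30 and -0.19 in the R98S mRNA libraries and 0.09, 0.16 and 0.15 in the WT libraries. Clones 13 and 35 were thus low and R98S clone 11 was not. The R98S minus WT difference of these medians, -0.26 in mRNA and -0.29 in RPF, was the lowest of 20 chromosomes. Chromosome 8 was second lowest, at -0.21 and -0.20, with mRNA medians of -0.13, -0.04 and -0.14 against 0.10, 0.12 and 0.11.

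With each clone's chromosome median removed, *Gclm* mRNA had a log2 fold change of -1.01 (limma adjusted p 0.0113) and its RPF -0.63 (limma adjusted p 0.0777). *Prdx2* mRNA then had -0.68 (limma adjusted p 0.127), which ended the call, and its RPF -0.92 (limma adjusted p 0.0322). The *Mgst2* call in mRNA also ended, at -1.07 (limma adjusted p 0.148), while RPF kept -1.08 (limma adjusted p 0.0979). *Nqo1* RPF had -0.98 (limma adjusted p 0.0919). Calls of *Srxn1* mRNA at -0.77 (limma adjusted p 0.0258), *Hmox2* RPF at -0.70 (limma adjusted p 0.0751) and *Txn2* RPF at 0.89 (limma adjusted p 0.0618) were kept. *Glrx2* is on chromosome 1, whose difference of medians was the highest of 20 in mRNA at 0.20, and its log2 fold changes became 0.19 in mRNA and 0.32 in RPF, not called in either. *Nqo1* mRNA, not called before, had -0.51 (limma adjusted p 0.409). *Gclm*, *Mgst2*, *Prdx2* and *Nqo1* were picked for changes larger than the shift removed, so their signs could not reverse here, and the step does not test a chromosome-wide cause. The other 3 tested members of chromosomes 3 and 8, *Gstm1*, *Gsr* and *Hmox1*, were not called in mRNA by limma without array weights. With array weights, limma called *Gsr* mRNA lower (adjusted p 0.0498). What moved the medians was not tested.

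**Figure D4:**
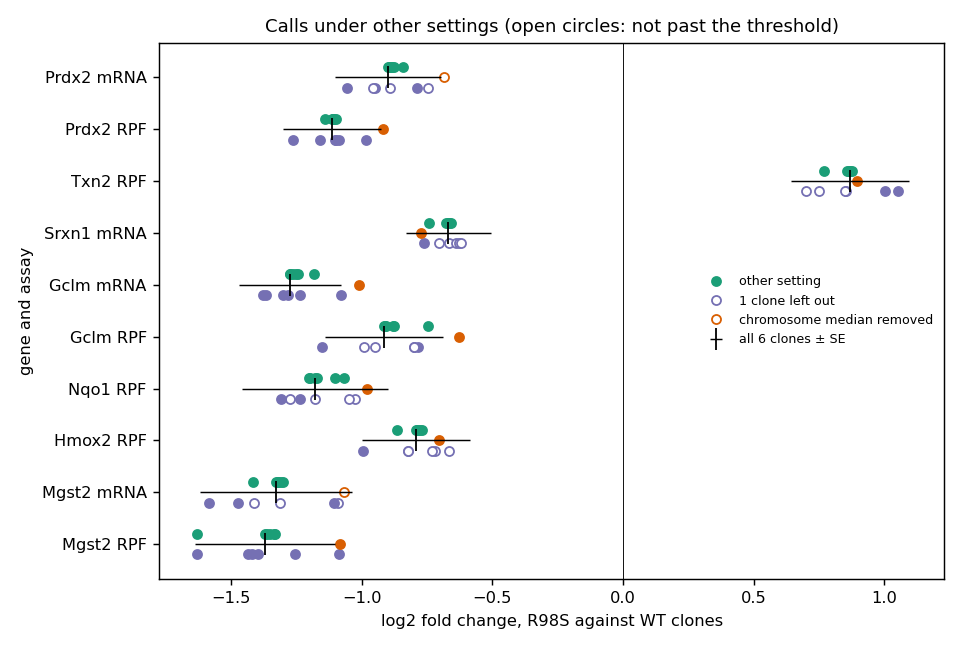
Log2 fold change, R98S against WT clones, of the 10 member calls with all 6 clones (bar of 1 SE) and under 13 alternatives each, filled where limma, edgeR or DESeq2 adjusted p was under 0.1 and open where it was not. *Gclm* mRNA, *Prdx2* RPF and *Mgst2* RPF were called under 13 of 13.

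Other genes of the pathway were read from fixed lists. Among all tested genes, limma called 3.91% lower and 3.03% higher in mRNA, and 4.62% and 3.13% in RPF. Whether the count of any list differed from these shares was not tested. Genes of these lists are named for their calls, so clones that do not overlap add no separate support for them. Of other glutathione genes, 1 of 20 tested was higher and 2 lower in mRNA, and 2 of 19 higher and 1 lower in RPF. *Gstm2*, a glutathione transferase of a family with close copies on chromosome 3, had mRNA of 6.35, 1.64 and 1.72 in the R98S clones and 158, 310.1 and 159.9 in the WT clones. Its R98S clones were near 0, and the log2 fold change was -5.74 (SE 0.52, limma adjusted p 0.000400). *Oplah*, which returns oxoproline to glutamate in the glutathione cycle, had RPF of 63.3, 65.4 and 67.2 in the R98S clones and 5.73, 14.6 and 15.8 in the WT clones. The WT clones were far lower, with a log2 fold change of 2.46 (SE 0.40, limma adjusted p 0.0117). In mRNA *Oplah* was higher, with a log2 fold change of 1.46 (SE 0.32, limma adjusted p 0.0366) in 3 of 3 R98S clones, a call that ended without R98S clone 11 (0.179) or R98S clone 13 (0.116).

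*Ggt5*, a gamma-glutamyl transferase, was lower in 3 of 3 R98S clones in both assays. Its log2 fold change was -1.33 (SE 0.38, limma adjusted p 0.0951) in mRNA, where leaving out any 1 clone ended the call (limma adjusted p 0.115 to 0.261), as did dropping the low-count filter (0.196) or removing chromosome medians (0.117). In RPF it was -2.11 (SE 0.44, limma adjusted p 0.0267), and the call ended without R98S clone 13 (0.107). *Gstt2* RPF was higher in 3 of 3 R98S clones, by a log2 fold change of 1.11 (SE 0.31, limma adjusted p 0.0735), a call that ended without R98S clone 11 (0.251), R98S clone 13 (0.192), WT clone 28 (0.181) or WT clone 36 (0.147).

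Of 26 other thioredoxin-fold genes tested, 1 was lower in each assay and 0 higher by limma, with 3 higher in each at an unadjusted p under 0.05. edgeR called 0 higher in either assay, and DESeq2 0 in mRNA and 1 in RPF. The lower gene was *Txnip*, whose protein binds and inhibits thioredoxin, and which also lies on chromosome 3. *Txnip* mRNA was 8205, 5852 and 8978 in the R98S clones and 15932, 15983 and 19340.3 in the WT clones. R98S clones held less than the lowest WT clone, with a log2 fold change of -1.17 (SE 0.20, limma adjusted p 0.0132). Its RPF were 1849, 1171 and 3014 in the R98S clones and 10479, 6987 and 7837 in the WT clones, with a log2 fold change of -2.15 (SE 0.31, limma adjusted p 0.00526). The TE difference was -0.98 (95% interval -1.55 to -0.41, -1.20 to -0.77 with 1 clone left out, limma adjusted p 0.493), with R98S clones below WT clones. limma and edgeR (0.424) did not call it, while DESeq2 (adjusted p 0.0744) and limma with array weights (0.00490) called it lower.

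Other NRF2-linked genes had 1 of 25 higher and 2 lower in mRNA, and 0 higher and 4 lower in RPF by limma, with 2 higher there at an unadjusted p under 0.05 and 0 by edgeR or DESeq2. *Aox1*, an aldehyde oxidase, had mRNA of 224, 183 and 110.0 in the R98S clones and 21.5, 35.5 and 31.3 in the WT clones. All R98S clones were higher, by a log2 fold change of 2.48 (SE 0.36, limma adjusted p 0.00582). *Fth1*, the ferritin heavy chain, had RPF of 1253, 959 and 845 in the R98S clones and 2355, 2383 and 2784 in the WT clones. R98S clones were all lower, with a log2 fold change of -1.31 (SE 0.19, limma adjusted p 0.00597), while its mRNA overlapped at -0.31 (95% interval -0.78 to 0.17, limma adjusted p 0.50), or -0.41 without WT clone 28 and -0.44 to -0.12 over all 6 omissions of 1 clone. In TE, *Fth1* was below WT in 3 of 3 R98S clones, with a difference of -1.01 (95% interval -1.52 to -0.49, -1.16 to -0.75 with 1 clone left out, limma adjusted p 0.437). DESeq2 (adjusted p 0.0375) and limma with array weights (0.0110) called it lower, and edgeR (0.410) did not. So whether the assays differed in *Txnip* and *Fth1* depended on the test.

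The other named genes of that list were lower in 3 of 3 R98S clones, which follows closely from naming them for lower calls. Among all tested genes, R98S clones lay below WT clones for 11.6% in mRNA and 12.8% in RPF. *Abcc1*, an export pump for glutathione conjugates, had an mRNA log2 fold change of -0.93 (SE 0.16, limma adjusted p 0.0137) and an RPF one of -0.77 (SE 0.16, limma adjusted p 0.0291), the latter call ending without R98S clone 11 (0.132). *Akr1b8*, an aldo-keto reductase, had -0.67 (SE 0.19, limma adjusted p 0.0926) in mRNA, a call that ended without R98S clone 11 (0.261), R98S clone 13 (0.258), R98S clone 35 (0.151), WT clone 29 (0.175) or WT clone 36 (0.241). It also ended without the low-count filter (0.139) and with chromosome medians removed (0.121). In RPF *Akr1b8* had -0.91 (SE 0.24, limma adjusted p 0.0616), which ended without R98S clone 11 (0.212), R98S clone 13 (0.144), WT clone 28 (0.175) or WT clone 36 (0.134). *Blvrb*, a biliverdin and flavin reductase, had -0.88 (SE 0.20, limma adjusted p 0.0375) in RPF, and that ended without R98S clone 11 (0.148), R98S clone 13 (0.136) or WT clone 28 (0.107).

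Repair of oxidised protein and DNA had 1 of 13 genes higher and 1 lower in mRNA, and 0 of 12 higher and 1 lower in RPF by limma, with 2 higher in RPF at an unadjusted p under 0.05 and 0 by edgeR or DESeq2. *Neil3*, a DNA glycosylase, was lower in 3 of 3 R98S clones, with a log2 fold change of -0.96 (SE 0.28, limma adjusted p 0.0958) in mRNA, which ended without R98S clone 11 (0.320), R98S clone 13 (0.146), R98S clone 35 (0.182), WT clone 28 (0.117) or WT clone 29 (0.201). TMM factors (0.103) and the removal of chromosome medians (0.191) ended it as well. Its RPF log2 fold change was -1.11 (SE 0.27, limma adjusted p 0.0453), which ended without R98S clone 11 (0.134) or R98S clone 13 (0.136). *Nthl1*, another glycosylase, was higher in 3 of 3 R98S clones in mRNA, by a log2 fold change of 1.22 (SE 0.30, limma adjusted p 0.0561), a call that ended without R98S clone 11 (0.261), R98S clone 13 (0.223) or WT clone 36 (0.182).

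Selenoprotein genes had 1 of 18 higher and 0 lower in each assay by limma, with 1 lower in mRNA and 0 in RPF at an unadjusted p under 0.05 and 0 lower by edgeR or DESeq2. The 1 gene was *Scly*, selenocysteine lyase, higher in 3 of 3 R98S clones with a log2 fold change of 0.67 (SE 0.19, limma adjusted p 0.0954) in mRNA, a call that ended without R98S clone 11 (0.326), R98S clone 13 (0.315), WT clone 28 (0.101) or WT clone 36 (0.273). In RPF it was 0.68 (SE 0.20, limma adjusted p 0.0942), which ended without R98S clone 11 (0.212), R98S clone 13 (0.330), WT clone 28 (0.225) or WT clone 36 (0.217). With chromosome medians removed, *Scly* was called in neither assay, at 0.47 (limma adjusted p 0.201) in mRNA and 0.51 (limma adjusted p 0.169) in RPF, and the mRNA call also ended without the low-count filter (0.124). NADPH and cystine supply had 0 of 19 genes called in mRNA and 0 of 18 in RPF by limma, with 1 higher and 1 lower in each at an unadjusted p under 0.05. There edgeR called 0, and DESeq2 called 1 lower in mRNA and 0 in RPF. NADPH oxidase subunits had 0 of 9 and 0 of 6 by limma, with 1 higher in mRNA and 0 otherwise at an unadjusted p under 0.05, a count that was the same by DESeq2 and 0 in both assays by edgeR.

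**Figure D5:**
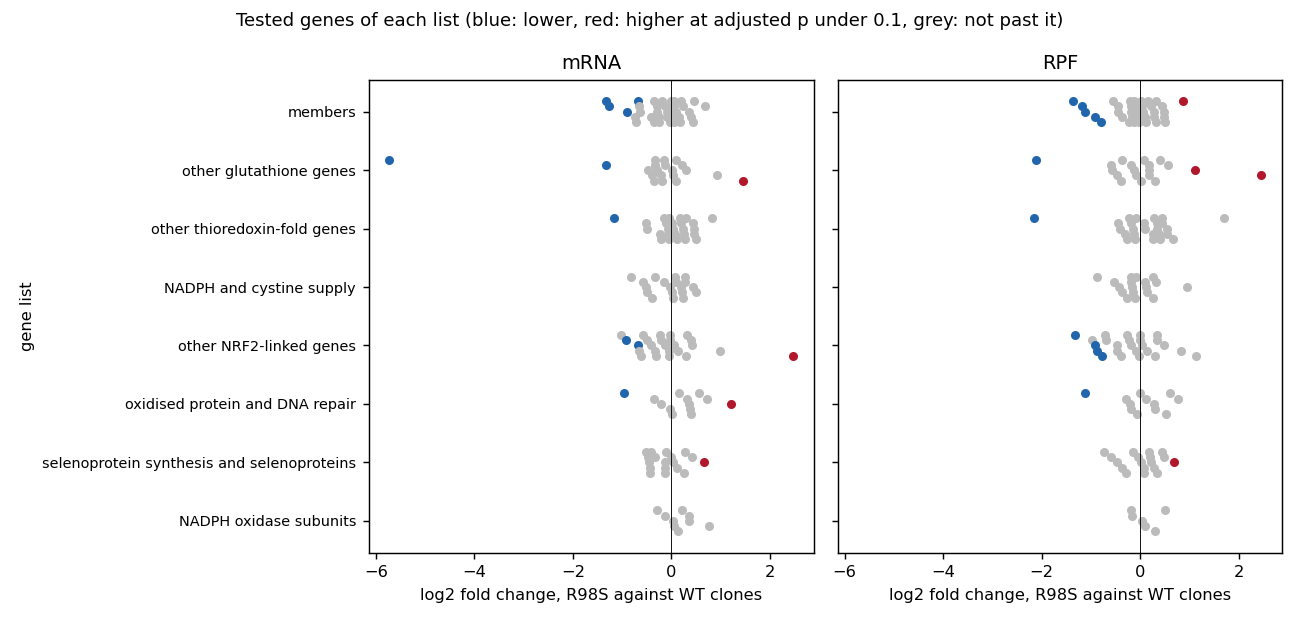
Log2 fold change, R98S against WT clones, of each tested member and of each tested gene in 7 pathway lists, mRNA left and RPF right, with points in red where limma called a gene higher, blue where lower and grey where neither. *Gstm2* had the largest fall in mRNA at -5.74, and *Txnip* the largest in RPF at -2.15.

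The p-values measure the spread between 3 monoclonal cultures per genotype, so differences of genotype and of the single cells that founded the cultures cannot be told apart. Adding 1 before the logarithm makes the folds of low genes smaller than the ratios of their values. RPF and mRNA tables were scaled separately, and a shift common to all genes in translation would not be seen. Protein levels, enzyme activity, glutathione and reactive oxygen were not measured in these libraries.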

How the data were processed

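Ribosome footprint (RPF) and mRNA libraries of 6 Ba/F3 clones, 12 libraries in all, were read from 2 tables deposited by the authors. The values are normalized signal, made by the authors from gene counts with DESeq2, which scaled the libraries of each table among themselves. Per the study's methods, RPF reads were trimmed of adapters, freed of rRNA and tRNA reads with Bowtie2, aligned with TopHat2 2.0.11 to mm10 (GRCm38) and counted on coding sequence without the first 15 and last 5 codons, with 3 technical replicates merged. mRNA reads were aligned likewise and counted on exons. SAMtools was used for the alignment files. Each column is whole multiples of 1 step, so reads were recovered (100% of values whole within 0.01 read). Recovered depths were 6617457 to 23136595 reads for mRNA and 3477723 to 10883086 for RPF.

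For R98S against WT clones, limma 3.58.1 under R 4.3.3 was run with its variance following a trend. Values entered as log2(value + 1) for genes with a mean of at least 10 normalized counts, and p-values were adjusted by Benjamini-Hochberg over all tested genes, with a threshold of 0.1. TE was log2(RPF + 1) minus log2(mRNA + 1) of each clone, for genes of at least 10 in all 12 libraries. The clone numbers in the labels pair the libraries. Deviations of RPF and mRNA from the mean of the clone's genotype correlated by a mean r of 0.519 (0.218 to 0.681 by clone, across 9043 genes, which are not independent replicates). The TE variance trend ran over the mean log2 RPF value, chosen after the counts under 4 covariates had been seen.

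Alternatives were a pseudocount of 5, no low filter, array weights, TMM factors, each clone left out, chromosome medians removed, edgeR 4.0.16 quasi-likelihood and DESeq2 1.42.0 Wald tests on recovered reads, and for TE no pairing and 3 other trend covariates. On recovered reads, edgeR called 365 genes higher and 440 lower in mRNA and 336 and 472 in RPF. DESeq2 called 591 and 692 in mRNA and 469 and 626 in RPF. The scripts were tested on simulated data. Figures used Python 3.11.15 and matplotlib 3.10.9.

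Of 41255 gene names, 36860 matched GENCODE M21 by symbol and 1037 more through a RefSeq synonym. Lengths were those of the longest coding transcript, or of its coding sequence less the uncounted codons. Promoter windows are from RefSeq (GRCm38.p6). The members and lists were chosen with earlier results of these data known. Values in every library are given for members past the threshold in mRNA, RPF or TE, members whose R98S clones all lie on 1 side of the WT clones in both assays, the 3 highest per length in WT mRNA, and *Nfe2l2*, *Nfe2l1* and *Keap1*. From pathway lists, up to 3 genes per direction and assay are named, those with the largest called changes.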

Additional observations from a re-analysis of the deposited data

How the results depend on the processing

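Of the 10 member calls, *Gclm* mRNA, *Prdx2* RPF and *Mgst2* RPF were called under 13 of 13 alternatives. *Prdx2* mRNA, *Mgst2* mRNA, *Gclm* RPF, *Nqo1* RPF and *Txn2* RPF were called under 9, and *Srxn1* mRNA and *Hmox2* RPF under 8. Counts under a pseudocount of 5, no low filter, TMM factors and edgeR stayed within 1.5 times the reported ones for members and for all genes.

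With array weights, 1454 genes were higher and 1505 lower in mRNA, 882 and 917 in RPF and 523 and 474 in TE. Members were then 5 higher and 8 lower in mRNA, 4 higher and 6 lower in RPF and 2 higher in TE (*Glrx5* and *Txn2*). Members called in mRNA only with these weights included *Glrx2*, *Gsr*, *Hmox2*, *Prdx3*, *Txn2* and *Txnrd1*. *Glrx3*, *Gpx4* and *Prdx1* mRNA were called with them and under 1 other setting each. In RPF, *Gclc* and *Gsto1* were called only with them, and *Cat* and *Prdx3* under other settings too. DESeq2 gave 591 higher and 692 lower genes in mRNA, 469 and 626 in RPF and 16 and 38 in TE, with 1 member higher in mRNA and 2 in RPF. With chromosome medians removed, 2 members were lower in mRNA, 2 higher in RPF and 1 gene lower in TE. A TE trend over mean log2 mRNA, added after the data were seen, gave 4 genes lower. For the reported counts that moved under these settings, the cause was not tested.

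Treating the paired libraries as independent (no replicate block) gave 0 genes higher and 3 lower in TE, against 0 and 2 with the pairing.

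With 1 clone left out, fewer clones were tested. All genes ranged from 122 to 486 higher and 180 to 623 lower in mRNA, 62 to 510 and 164 to 646 in RPF, and 0 to 4 and 0 to 10 in TE. Members ranged from 0 to 1 higher and 1 to 4 lower in mRNA, 0 to 1 and 2 to 5 in RPF, and 0 to 0 in TE. The median percentile of member mRNA per length was 87.4 to 88.3, and 83.9 with the union of exons.

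Among the members described with values in each library and the named pathway genes, signs of small log2 changes reversed, and the cause was not tested. With chromosome medians removed these were *Nfe2l2* mRNA (-0.0019), *Nfe2l2* RPF (-0.044), *Nfe2l1* RPF (-0.0052) and *Keap1* RPF (0.016), and with array weights *Keap1* RPF (0.060) and *Scly* TE (-0.053). With 1 clone left out, mRNA ran from -0.12 to 0.39 in *Nfe2l2* and from -0.20 to 0.053 in *Nfe2l1*. RPF ran from -0.19 to 0.45 in *Nfe2l2*, from -0.0041 to 0.19 in *Nfe2l1* and from -0.16 to 0.13 in *Keap1*. TE ran from -0.32 to 0.16 in *Mgst2*, from -0.037 to 0.24 in *Glrx2*, from -0.0027 to 0.35 in *Prdx5*, from -0.27 to 0.070 in *Nfe2l2*, from -0.011 to 0.26 in *Keap1* and from -0.085 to 0.093 in *Scly*. Each of these ranges spans 0. Signs also reversed in members not described in each library. Among them, *Gsr* RPF ran from -0.18 to 0.10 and *Prdx6* mRNA from -0.14 to 0.25 over the alternatives.

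Depth limits low genes: 1 read was worth 2.69 normalized counts in the mRNA library of WT clone 28 and up to 1.68 in RPF, and the counts of *Prdx4* and *Mgst1* in mRNA and of *Gstm1* in RPF were below the filter and were tested only with no low filter, where none was called.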
